A study of Mus musculus with 20 samples.

Results

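The colony stimulating factors and their receptors were examined as 7 genes, Csf1, Csf2, Csf3, Csf1r, Csf2ra, Csf2rb and Csf3r, in the lungs of mouse dams. Their probes were found through a gene table, by accession first and else by gene name or synonym. In the spot tables Csf2rb carries the older name Csf2rb1. The 7 genes had 11 of the 41174 probes, and 10 of those 11, standing for 6 of the 7 genes, passed the filter on dim probes. The probes standing for those 6 genes were well above background on all 20 arrays. In all, 19914 genes were tested.

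Lungs came from 20 time-mated female C57BL/6BomTac mice, 5 individual dams in each of 4 groups. Carbon black (Printex 90), an industrial soot-like nanoparticle, was instilled into the trachea 4 times, on days 7, 10, 15 and 18 of gestation, so every dam of every group was pregnant when treated and lactated afterwards. The control dams received Milli Q water, and the others doses of 2.75, 13.5 or 67 µg, totals of 11 µg (low), 54 µg (medium) and 268 µg (high dose). The lungs were taken 26 to 27 days after exposure, once the offspring were weaned. Whole-lung RNA was labelled with Cy5 and hybridised with a common universal mouse reference RNA labelled with Cy3, 1 array per dam. Each value below is the log2 ratio of lung over reference in the deposited value table.

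Colony stimulating factors are secreted cytokines that keep myeloid cells alive and drive them to divide and mature. CSF1 acts on monocytes and macrophages through the tyrosine kinase CSF1R, which also binds interleukin 34. G-CSF (Csf3) acts on neutrophils through CSF3R. GM-CSF (Csf2) binds a receptor made of its own alpha chain (Csf2ra) and a signalling beta chain (Csf2rb) shared with the receptors for interleukins 3 and 5. In the lung, GM-CSF is required for the maturation of alveolar macrophages and for the clearance of surfactant by them.

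The 60-base probes behind the main results are shown by a stretch of 30 bases each, since these are the letters the measurements rest on. The mouse holds a near copy of the beta chain gene, Csf2rb2, which encodes a beta chain used with interleukin 3. The probes of Csf2rb and Csf2rb2 share a stretch with 27 of 30 identical bases, and capitals mark the 3 that differ. The next closest of the 66 probe pairs compared shared 20 of 30. The Csf2 and Csf1 probes are shown by their middle 30 bases. The files place the Csf1 probe at chr3:107559703-107559762 and the Csf2 probe at chr11:54204021-54204048, a span of 28 bases that covers only a piece of its 60-base sequence. The Csf2rb probe lies at chr15:78433690-78433749 and the Csf2rb2 probe at chr15:78365648-78365707, with Csf2, Csf1 and Csf2rb2 listed in descending order. All coordinates were read from the array of control dam 4, whose header names mm7. The headers of medium-dose dams 49 and 50 name mm8. The files do not say which exon or UTR a probe lies in.
Csf2: tcagcttggacagcggcaagacaaacgaga
Csf1: gccttctggttacagactatttccatgcta
Csf2rb: ggcagatcaaAtgtCccttggtctCtgttc
Csf2rb2: ggcagatcaaGtgtTccttggtctAtgttc

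Across the series, 64.0% to 78.3% of the probes of an array had a Cy5 signal well above background. Any 2 arrays correlated at 0.95 to 0.988 across genes, and genes are no independent replicates. All 16 epithelial lung markers measured, among them the surfactant genes, had a mean log2 ratio of 3.37 to 4.02 per dam. Control dam 14 had the highest value of the 5 controls for Csf2, Csf1r, Csf2ra, Csf2rb and Csf3r, and the highest mean for the macrophage, neutrophil, lymphocyte, epithelial and stromal marker lists too. High-dose dam 60 had the lowest value of its group for Csf2 and Csf2rb. Differences from control of the receptors are given with and without control dam 14. On slides 1 to 5 each group kept the same position, so array position and group cannot be told apart.

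Csf2, the gene of GM-CSF, rose at the high dose. It was measured by 10 spots per array. Its log2 ratios were 1.30, 1.25, 1.54, 1.30 and 1.47 in control dams 4, 7, 14, 15 and 18, and 1.32, 1.42, 1.26, 1.22 and 1.21 in low-dose dams 25, 27, 28, 31 and 36. In medium-dose dams 46 to 50 they were 1.23, 1.47, 1.43, 1.33 and 1.42, and in high-dose dams 60, 62, 63, 64 and 65 they were 1.38, 2.14, 2.29, 1.86 and 2.01. Of the 5 high-dose dams, 4 lay above every other dam of the study, while dam 60 lay within the control range. The group means were 1.37 ± 0.13 for control, 1.28 ± 0.09 for low-dose, 1.38 ± 0.10 for medium-dose and 1.94 ± 0.35 for high-dose dams (SD, n = 5 each). The medium dose, control and low dose thus followed the high dose in that order and differed from each other by less than 1 SD of the control group. Spots of the Csf2 probe on 1 array had an SD of 0.0423 to 0.114, against a pooled SD of 0.196 between dams of a group.

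**Figure D1:**
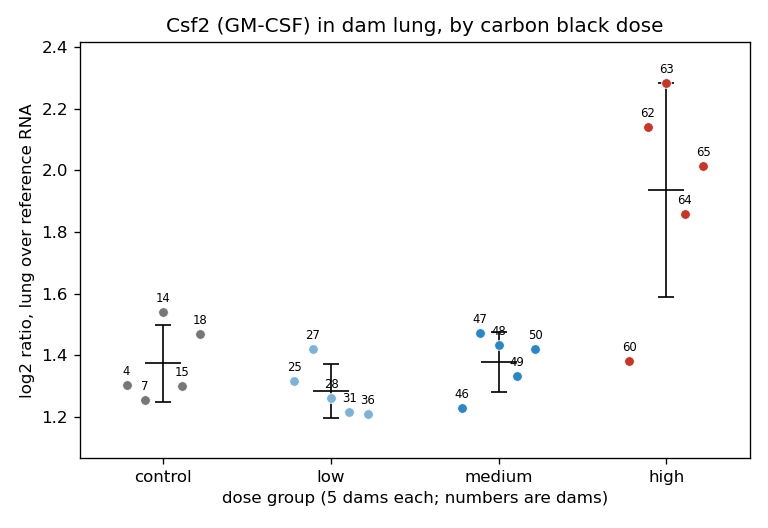
Csf2 log2 ratio of lung over reference RNA (y axis) for each dam, by dose group (x axis); bars show the mean and SD of 5 dams, and numbers name the dams. High-dose dams 62 to 65 sit between 1.86 and 2.29, above the highest control at 1.54, and dam 60 sits at 1.38.

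The high-dose mean exceeded the control mean by 0.56 ± 0.12 on the log2 scale (SE), or 1.48-fold, with an adjusted p of 0.0223 over all genes in limma and an exact two-sided permutation p of 0.0238 over all groupings of 5 dams against 5, which can give no less than 0.00794. The SE comes from 1 spread shared by all 4 groups, although the SD was 0.35 at the high dose and 0.09 to 0.13 in the others. Every difference of Csf2 between 2 groups therefore carries the same SE. Csf2 was 1 of 6 measured members called in that comparison, in which 1.03% of all genes were called in either direction, 0.492% higher and 0.537% lower, and it ranked 93rd of 19914 by p. On all 5 slides that held both groups the high-dose dam was above the control dam, by 0.0802 to 0.887. Without dam 60 the difference was 0.70 (adjusted p = 0.000193 by limma). The call was lost, at an adjusted p between 0.0551 and 0.0675 by limma, without control dam 7 or 15 or high-dose dam 62 or 63. It was also lost in ratios rebuilt from background-corrected spot signals with loess (0.68, adjusted p = 0.165 by limma), and in a fit of the control and high-dose arrays alone (adjusted p = 0.128 by limma).

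At the lower doses Csf2 did not pass the test. The low dose differed from control by -0.09 ± 0.12 (SE; 95% interval -0.32 to 0.14), with an adjusted p of 0.901 by limma. The medium dose differed by 0.00 ± 0.12 (-0.23 to 0.24), with an adjusted p of 0.99 by limma. Without dams 49 and 50, which had their own slide and scan day, the medium dose differed by 0.00512 (adjusted p = 0.997 by limma). Neither comparison called any of the 6 measured members, and over all genes 0.00502% were called in each, 1 gene, the plasmacytoid dendritic cell lectin Siglech, lower both times. The comparisons of high with low and with medium dose were added after the values had been seen, so their p-values are descriptive only. Set directly against the low dose, Csf2 rose by 0.65 ± 0.12 at the high dose (adjusted p = 0.023 by limma), in a comparison that called 0.146% of all genes. Against the medium dose the difference was 0.56 ± 0.12 and missed the threshold (adjusted p = 0.0792 by limma, and 0.000289 without dam 60), with 0.11% of all genes called. That difference also missed it with any other dam left out, at an adjusted p of up to 0.251 by limma. Under the other processing or fits tried the adjusted p was 0.0566 to 0.532 by limma. A linear trend over the 4 dose steps gave 0.18 ± 0.04 per step (adjusted p = 0.021 by limma, 1.36% of all genes called), although the control, low-dose and medium-dose means lay together. These comparisons share dams and are not independent of each other.

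The size of the Csf2 difference also depended on how the signal was treated, and the value table keeps the scanner background. The Cy5 signal of the Csf2 spots was 366 to 460 units in control, 339 to 390 in low-dose, 353 to 515 in medium-dose and 356 to 1010 in high-dose dams, over a median local background of 80 to 83 units. With the background removed and the lung channel taken alone, the high dose exceeded control by 0.93 on the log2 scale (adjusted p = 0.0286 by limma). The software's own dye ratio gave 0.85 (adjusted p = 0.0405 by limma). The median Cy5 signal of a whole array spanned 177 to 246 units at the high dose and 192 to 241 in controls.

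**Figure D2:**
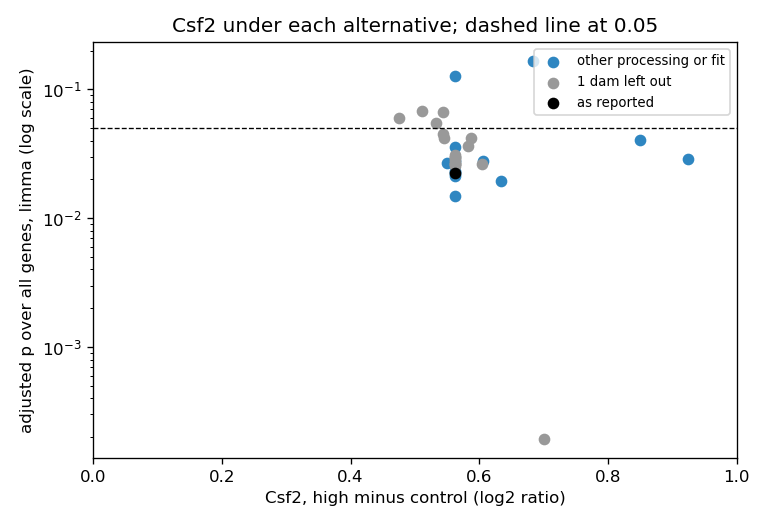
Csf2 difference between high dose and control (x axis, log2 ratio) against its adjusted p in limma over all genes (y axis, log scale) under each processing or fit tried and with each dam left out; the dashed line marks 0.05. The difference stayed between 0.475 and 0.925, and 6 of 34 alternatives lay above the line.

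Csf1, the macrophage factor, did not pass the test at any dose. Its log2 ratios spanned -1.43 to -1.24 in control, -1.33 to -1.22 in low-dose, -1.49 to -1.16 in medium-dose and -1.34 to -1.0 in high-dose dams, with all groups overlapping. Only high-dose dam 63, at -1.0, lay above the other dams. The high dose differed from control by 0.12 ± 0.07 (SE; 95% interval -0.02 to 0.27, adjusted p = 0.397 by limma), the medium dose by 0.04 ± 0.07 and the low dose by 0.10 ± 0.07. The 10 Csf1 spots of an array had an SD of 0.0158 to 0.0355 between them, below the SD of 0.111 between dams.

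Csf3, the gene of G-CSF, had a Cy5 signal not well above background on any of the 20 arrays. Its Cy5 signal was 84 to 94 units at the high dose and 82 to 86 units in controls, about the level of the local background. No fold is given for it. Without the filter on dim probes its log2 ratio was 0.04 ± 0.10 at the high dose and -0.06 ± 0.05 in controls (SD, n = 5 each), with an adjusted p of 0.303 by limma.

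Among the receptors, no member passed the test against control at any dose; the means of Csf2rb and Csf1r were lowest at the low dose. For Csf2rb, the beta chain shared with the interleukin 3 and 5 receptors, the controls had log2 ratios of 1.08, 1.12, 1.69, 1.02 and 1.25 and the low-dose dams 0.86, 0.58, 1.05, 0.98 and 0.76. The medium-dose dams had 0.82, 1.11, 0.98, 0.97 and 1.06, and the high-dose dams 1.01, 1.47, 1.40, 1.35 and 1.36, in the order of dams given for Csf2. At the low dose 4 of 5 dams lay below every control, and the 4 high-dose dams with high Csf2 lay above every low-dose and every medium-dose dam. The low dose differed from control by -0.39 ± 0.12 (SE; unadjusted p = 0.00349, adjusted p = 0.587 by limma), the medium dose by -0.25 ± 0.12 (adjusted p = 0.35) and the high dose by 0.09 ± 0.12 (adjusted p = 0.771). At an unadjusted p under 0.05 in limma, 7.49% of all genes were counted at the low dose and 14.1% at the medium dose. Without control dam 14 the Csf2rb differences were -0.27 at the low, -0.13 at the medium and 0.20 at the high dose, none past the threshold.

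For Csf2rb too, high and low dose were compared after the values had been seen, so the p-values are descriptive only. The high dose exceeded the low dose in Csf2rb by 0.47 ± 0.12, which missed the threshold (adjusted p = 0.106 by limma), though the high-dose dam was above the low-dose dam on all 5 slides, by 0.143 to 0.892. It passed without high-dose dam 60 (0.55, adjusted p = 0.0304 by limma) and without control dam 14 (0.47, adjusted p = 0.0464). With any other dam left out it did not pass, at an adjusted p of up to 0.304 by limma. No other processing or fit tried passed either, with differences of 0.219 to 0.492 (adjusted p of 0.0797 to 0.689 by limma). The other 2 Csf2rb probes were dimmer and differed less. Their high-minus-low differences were 0.12 ± 0.07 and 0.06 ± 0.06, and their low-minus-control differences -0.02 ± 0.07 and -0.16 ± 0.06 (SE). The Csf2rb values therefore rest on the probe whose letters are shown above.

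Csf2rb2, the near copy of the beta chain gene, gave a similar profile, with a probe that shares 27 of those 30 bases. Its log2 ratios were -0.19, -0.04, 0.22, -0.46 and 0.16 in control dams and -0.39, -0.62, -0.26, -0.38 and -0.68 in low-dose dams. They were -0.46, -0.10, -0.40, -0.43 and -0.29 in medium-dose dams and -0.22, 0.45, 0.29, -0.12 and 0.35 in high-dose dams. All high-dose dams lay above all low-dose dams, as was the case for 1.18% of genes in that direction. These groups were likewise compared after the values had been seen, so the p-values are descriptive only. The high dose exceeded the low dose by 0.62 ± 0.14 (SE; adjusted p = 0.0873 by limma, exact two-sided permutation p = 0.00794, the smallest possible). It passed without dam 60 (adjusted p = 0.0185 by limma) or without high-dose dam 64 (adjusted p = 0.0446). With any other dam left out it did not pass, at an adjusted p of up to 0.24 by limma. No other processing or fit tried passed either (adjusted p of 0.0671 to 0.303 by limma). Against control the differences were 0.21 ± 0.14 at the high dose and -0.40 ± 0.14 at the low dose, neither past the threshold (0.28 and -0.33 without control dam 14). Over the 20 arrays Csf2rb and Csf2rb2 correlated at 0.90, and at 0.79 once group means were removed. With so many shared bases, cross-hybridisation between these 2 probes was not tested.

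Csf2ra, the alpha chain that gives the GM-CSF receptor its specificity, did not follow Csf2 or Csf2rb. Its log2 ratios spanned 2.65 to 3.42 in control, 2.85 to 3.12 in low-dose, 2.79 to 3.32 in medium-dose and 2.67 to 3.12 in high-dose dams, so each dosed group lay inside the control range. The upper end of that range was control dam 14 alone, and the other controls reached 2.98. The high dose differed from control by 0.05 ± 0.13 (SE, 95% interval -0.20 to 0.30, adjusted p = 0.895 by limma), the medium dose by 0.16 ± 0.13 and the low dose by 0.07 ± 0.13. Without control dam 14 the Csf2ra differences were 0.20 at the low, 0.29 at the medium and 0.17 at the high dose, none past the threshold. Across the 20 arrays its correlation was -0.05 with Csf2 and 0.06 with Csf2rb.

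Csf1r, the CSF1 receptor of macrophages, had log2 ratios of 1.16, 1.13, 1.68, 1.24 and 1.44 in control dams and 1.17, 0.92, 1.05, 1.04 and 1.12 in low-dose dams. They were 1.14, 1.22, 1.11, 1.12 and 1.21 in medium-dose dams and 1.11, 1.32, 1.35, 1.03 and 1.23 in high-dose dams. Of the low-dose dams, 4 of 5 lay below the lowest control, and dam 14 stood highest among the controls. The low dose differed from control by -0.27 ± 0.09 (SE; unadjusted p = 0.00614, adjusted p = 0.587 by limma), the medium dose by -0.17 ± 0.09 and the high dose by -0.12 ± 0.09. All 3 Csf1r probes had negative differences at each dose, between -0.08 and -0.27. Without control dam 14 the Csf1r differences were -0.18 at the low, -0.08 at the medium and -0.04 at the high dose, none past the threshold.

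Csf3r, the G-CSF receptor of neutrophils, had SDs of 0.25 to 0.36 between dams of a group, against 0.05 to 0.23 for Csf1r. Its means were 2.35 ± 0.31 for control, 2.07 ± 0.36 for low-dose, 2.09 ± 0.25 for medium-dose and 2.05 ± 0.28 for high-dose dams (SD, n = 5 each). No difference passed the test, with -0.31 ± 0.18 (SE, adjusted p = 0.402 by limma) for the high dose against control. Without control dam 14 the Csf3r differences were -0.16 at the low, -0.14 at the medium and -0.18 at the high dose. In the software's dye ratio the sign turned, to 0.09 at the high, 0.74 at the medium and 0.18 at the low dose.

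**Figure D3:**
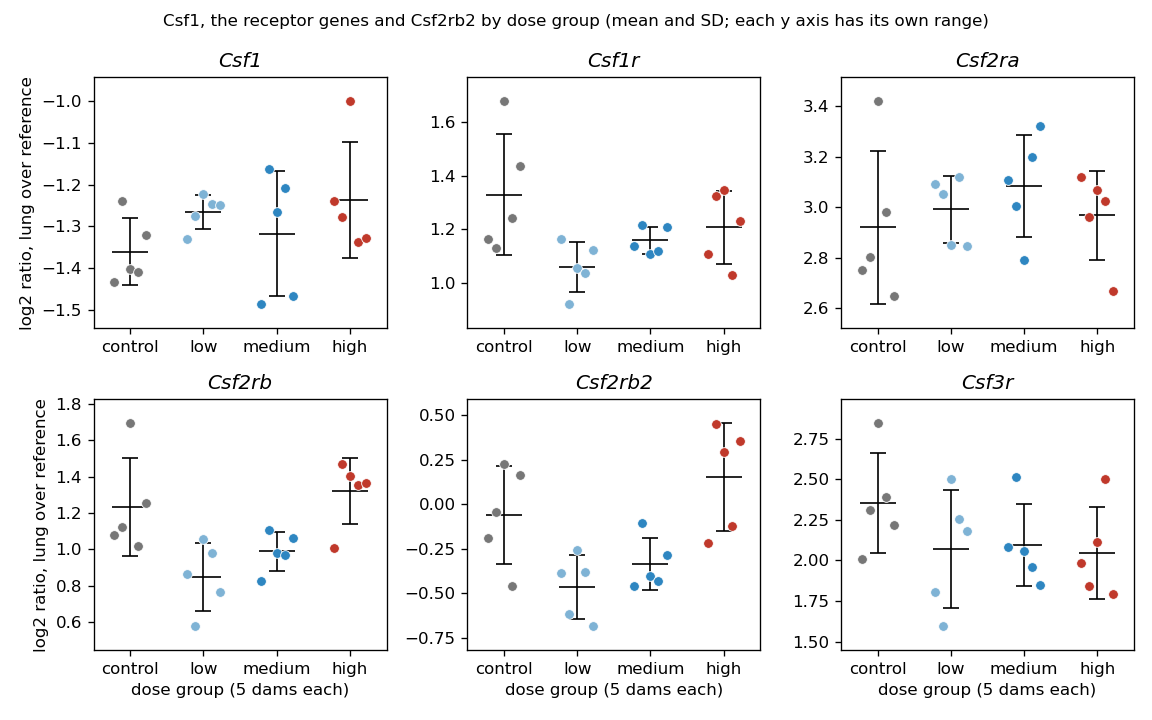
Log2 ratio of lung over reference RNA (y axes, each with its own range) for Csf1, Csf1r, Csf2ra, Csf2rb, Csf2rb2 and Csf3r in each dam, by dose group (x axes), with mean and SD of 5 dams. The low-dose mean is lowest for Csf2rb and Csf2rb2, though low-dose dams overlap control and medium-dose dams. For Csf2rb 4 high-dose dams, at 1.35 to 1.47, lie above every low-dose and medium-dose dam.

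**Figure D4:**
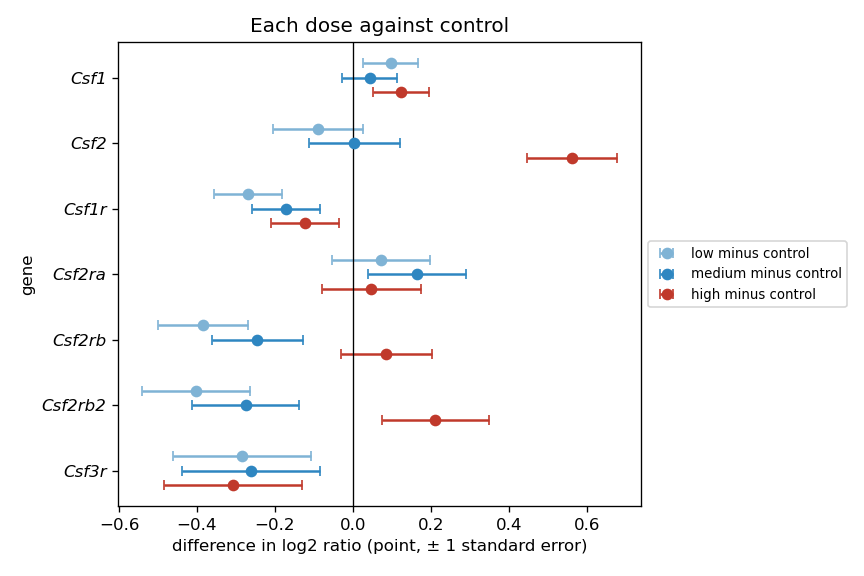
Difference of each dose from control in log2 ratio (x axis, point and 1 SE) for the 6 measured members and Csf2rb2 (y axis). Csf2 at the high dose, at 0.56, is the value that passed the adjusted test; Csf2rb and Csf2rb2 lie below 0 at the low dose (-0.39 and -0.40) and above 0 at the high dose (0.09 and 0.21).

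The genes whose log2 ratio was most like each member's over the 20 arrays were taken from 15545 genes with a symbol. They are descriptions chosen for their likeness, and points of 1 dose group or slide share that source. For Csf2 they were Ly6f, a Ly6 surface protein (r = 0.96), Noxo1, which organises a NADPH oxidase (0.94), and Lemd1, a LEM domain protein (0.93). The 4 high-dose dams with high Csf2 form a separate cluster in these values. With group means removed r was 0.90, 0.79 and 0.80, and Spearman's rho over all arrays was 0.72, 0.59 and 0.45.

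The receptors had different company. Csf2ra followed Sftpa1, the surfactant protein A gene of alveolar epithelium (r = 0.98, and 0.98 without group means), Nkd1, an inhibitor of Wnt signalling (0.96), and Lyz2, the lysozyme gene of macrophages and alveolar epithelium (0.95). Csf3r followed Stfa2l1, a stefin-like gene (0.92), S100a8, a calgranulin of neutrophils (0.91), and Tnfsf14, a TNF family ligand (0.90). Csf2rb was most like Pik3r5, a regulatory subunit of a leukocyte PI3 kinase (0.92), Lpxn, leupaxin (0.91), and Bin3 (0.90). Csf1r was most like the Src-like adaptor Sla (0.90), the nuclease Pld4 (0.87) and the inflammasome sensor Naip2 (0.84). For Csf1 the values were lower, 0.70 for Chsy3 and 0.65 for Artn and Ccn1, and without the 2 arrays farthest from the Csf1 median they were 0.53, 0.30 and 0.65. Without 2 such arrays the values of the Csf2, Csf1r, Csf2ra, Csf2rb and Csf3r neighbours were 0.70 to 0.98.

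Related cytokine and receptor genes did not pass the test at the high dose, 0 of 10 measured, where 1.03% of all genes were called. Their median difference was 0.00, against -0.00911 over all genes. Flt3, a receptor of dendritic cell progenitors, differed by -0.29 ± 0.09 (adjusted p = 0.12 by limma) and its ligand Flt3l by -0.16 ± 0.08 (SE). Il34, the other ligand of CSF1R, named here for that role, differed by 0.06 ± 0.07. Il3 and Il5, the other cytokines that signal through the beta chain, were not well above background on any array.

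Cytokines and factors known to induce colony stimulating factors gave 0 of 11 measured genes past the test at the high dose, with a median of 0.06. Of the 11, only 6 had a positive difference. Genes named here and in the next lists were among those with the lowest p of their list at the high dose. Over all genes 1.03% were called there, so a count of 0 in this or the next lists, being short, says little. Il33, an epithelial alarmin, differed by 0.55 ± 0.16 (adjusted p = 0.0938 by limma), Tnf by 0.30 ± 0.09 (0.0978), Il6 by 0.51 ± 0.16 (0.108) and the NF-kappaB subunit Nfkb1 by 0.19 ± 0.07 (0.191). At an unadjusted p under 0.05 in limma, 5 of the 11 were higher and 2 lower, where 16.5% of all genes were counted. The list was chosen with earlier results of these data known, so this count is descriptive only. The signal transduction genes behind the receptors gave 0 of 22 past the test, with a median of 0.02 and a positive difference in only 12 of the 22. Stat3 differed by 0.32 ± 0.09 (adjusted p = 0.0981 by limma), Socs3, a feedback inhibitor of cytokine signalling, by 0.30 ± 0.09 (0.102), the kinase Pim1 by 0.25 ± 0.08 (0.112) and the phosphatase Ptpn2 by 0.18 ± 0.06 (0.125). Myeloid transcription factors gave 0 of 16, with a median of 0.08 and a positive difference in 12 of the 16. Maf, a factor of macrophages, differed by 0.35 ± 0.11 (adjusted p = 0.106 by limma).

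Of 19 measured genes of alveolar macrophages that depend on GM-CSF, 1 rose and 1 fell at the high dose, with a median of -0.05, where 0.492% of all genes were called higher and 0.537% lower. Il1rn, the interleukin 1 receptor antagonist, rose by 0.52 ± 0.12 (adjusted p = 0.0425 by limma), and Siglecf, a lectin of alveolar macrophages and eosinophils, fell by 0.93 ± 0.15 on the log2 scale (adjusted p = 0.00413). The fatty acid binding protein Fabp1 differed by -0.88 ± 0.32 and the keratin Krt79 by -0.50 ± 0.18, neither past the test. The list's mean per dam was 2.34 to 2.80 at the high dose and 2.55 to 3.01 in controls, or 2.55 to 2.79 without control dam 14. Macrophage and monocyte genes tied to CSF1 gave 0 of 19 past the test, with a median of 0.17 and a positive difference in 13 of the 19. Cd14 differed by 0.71 ± 0.23 (adjusted p = 0.131 by limma), and the complement genes C1qa and C1qb by 0.40 ± 0.12 and 0.46 ± 0.16. At an unadjusted p under 0.05 in limma, 6 of these 19 were higher and 1 lower, where 16.5% of all genes were counted. This list too was chosen with earlier results of these data known, so the count is descriptive only. The mean of these genes per dam was 2.28 to 2.45 at the high dose. In controls it was 2.05 to 2.58, or 2.05 to 2.14 without control dam 14. In whole lung, fewer cells of a type and less RNA per cell cannot be told apart.

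Some markers of other cells were also called at the high dose, to be read against the 0.492% of all genes called higher and the 0.537% called lower there. Among neutrophil markers 1 of 17 rose (Lcn2, 1.08 ± 0.23, adjusted p = 0.0253 by limma) and 1 fell (Camp, -1.33 ± 0.30, adjusted p = 0.0338), with a median of -0.26 and a mean per dam of 1.44 to 1.86 at the high dose and 1.67 to 2.39 in controls, or 1.67 to 1.88 without control dam 14. Of T and natural killer cell markers 4 of 14 fell (Prf1, Klrb1c, Klrd1 and Gzmb, by 0.61 to 0.71), with a mean of 1.21 to 1.5 at the high dose and 1.56 to 1.83 in controls. Of B and plasma cell markers 2 of 9 rose, Jchain by 1.78 ± 0.36 and Tnfrsf17 by 0.82 ± 0.17 (adjusted p = 0.0214 and 0.0223 by limma), with a mean of -0.402 to 0.77 at the high dose and -0.415 to 0.0112 in controls. In the eosinophil and mast cell list Ear6 fell by 0.68 ± 0.10 on the log2 scale, 1 of 8, and in the dendritic cell list Siglech fell by 0.44 ± 0.05, 1 of 10. No epithelial marker, 0 of 16, and no fibroblast or endothelial marker, 0 of 10, passed the test. Elane and Epx, defining markers of immature neutrophils and of eosinophils, were not well above background on any array. The part of these cells in the Csf2, Csf2rb and Csf3r values was not tested.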

How the data were processed

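The authors deposited, for each of the 20 arrays, a Feature Extraction spot table with intensity values of both channels and a log10 dye ratio, and a value table in log2. Per the labels, lung RNA was in Cy5 and the reference in Cy3, with no dye swap. Per the file headers, versions 9.5.1.1 (18 arrays) and 10.1.1.1 (2 arrays, medium-dose dams 49 and 50) were used, where the labels name 9.5.3.1. Set against the spot tables, the deposited log2 values (43379 features, column medians -0.05 to -0.0315) equal the ratio of median Cy5 to Cy3 intensity without background subtraction, plus a smooth intensity-dependent shift within each array. The origin of that shift is not given in these sources.

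Outlier-flagged spots were dropped and the spots of a probe averaged. Probes entered the test if Cy5 was well above background on 3 or more arrays of any group, and the probe with the highest mean Cy5 signal stood for its gene if it had a value on at least 16 arrays. Genes were named through the GRCm38.p6 gene table. limma 3.58.1 (lmFit, eBayes, R 4.3.3) was fitted over all 20 arrays, with Benjamini-Hochberg adjustment over 19914 genes and a threshold of 0.05. High against low and high against medium dose were added after the values had been seen. The value table was preferred to normexp and loess of the spot signals, in which low-dose dam 27 had a slope of 0.704 on the other arrays, against 0.939 to 1.05 for all arrays in the value table. On simulated data of the high-dose comparison (19914 genes), 83% of 100 genes planted at 0.5 and 98% of 100 planted at 1 (log2) were called, with 14 false among 195 calls. The simulated noise was normal, independent between genes and equal in all groups, without slide or scan day. These rates therefore need not hold for the real arrays. The number of arrays limits the precision.

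All members are named; of each other list the 4 genes with the lowest high-dose p were eligible, and the 3 genes most alike per member. Some eligible genes are not reported here. The members and lists were chosen with earlier results of these data known. Slide, scan day, the scaling, the background correction, the filter, the probe choice and each dam left out were tried as alternatives.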

Additional observations from a re-analysis of the deposited data

Results flagged for a closer look

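Of 64 groups of 5 dams examined over the members and the related genes, 3 held a dam whose gap to its nearest neighbour was large against the range of its group; chance gives about 1 in 20 such groups. For Csf2rb, high-dose dam 60 was lowest at a log2 ratio of 1.01, with the nearest dam at 1.35. For Il3ra, the interleukin 3 receptor alpha chain, high-dose dam 62 was lowest at 0.05, with the nearest at 0.54. For Kit, the stem cell factor receptor, low-dose dam 31 was highest at 4.39, with the nearest at 4.04.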

How the results depend on the processing

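Dams were not paired by number, since no dam number is shared between groups, but slides 1 to 5 each held 1 control, 1 low-dose and 1 high-dose dam. With slide as a block Csf2 at the high dose differed from control by 0.56 (adjusted p = 0.0149 by limma). Calls over all genes depended heavily on the processing. For high dose against control they numbered 205 as reported, against 14 with normexp and loess, 10 with the software's dye ratio, 18 with Cy5 alone, 382 without the filter, 340 with the mean of a gene's probes, 622 with slide and 425 with scan date as a block, 21 with the arrays of those groups alone, and 79 to 247 with 1 dam left out. For the trend they numbered 270, against 15, 4 and 14 with normexp, dye ratio and Cy5 alone, 170 with arrays scaled to each other, 492 without the filter, 415 with the mean of probes, 589 and 406 with slide and scan date as a block, and 87 to 336 with 1 dam left out. For medium against control it was 1, against 0 with normexp, dye ratio and Cy5 alone, 5 with loess alone, 3 with median centring, 3 without the filter, 2 with slide as a block, and 1 to 9 with 1 dam left out. For low against control it was 1, against 0 with normexp, dye ratio and Cy5 alone, and 1 with any dam left out. For high against low dose it was 29, against 14 with the dye ratio, 19 with Cy5 alone, 18 without the slide of 2 medium-dose arrays, and 11 to 143 with 1 dam left out. For high against medium dose it was 22, against 6 with normexp, 8 with the dye ratio, 5 and 1 with slide and scan date as a block, 0 without the slide of medium-dose arrays, and 4 to 107 with 1 dam left out. The cause was not tested.

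The count of 1 member called at the high dose became 0 with normexp and with the arrays of those groups alone, and 0 to 1 with 1 dam left out. In the trend it became 0 with normexp (adjusted p of Csf2 0.106 by limma) and the dye ratio (0.0537), and 0 to 1 with 1 dam left out; there the call was lost without high-dose dam 62 or 63 or control dam 15. Against the low dose it became 0 with scan date as a block (adjusted p 0.05) and without the slide of medium-dose arrays (0.0512), and 0 to 2 with 1 dam left out. In that comparison Csf2 lost its call without low-dose dam 25, 28, 31 or 36 or high-dose dam 62, 63 or 65. Against the medium dose the count was 0, and 0 to 1 with 1 dam left out. For medium and low against control it was 0 throughout, also with 1 dam left out (0 to 0).

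Signs turned for differences that passed no test, and not all of these were near 0. Csf2 at the medium dose became -0.0149 with median centring, -0.00828 with slide as a block, -0.00464 with outlier spots kept and -0.0257 to -0.00615 without 1 of 6 dams (all omissions -0.0257 to 0.0462). Csf2 at the low dose became 0.0306 with the dye ratio and 0.0178 with Cy5 alone. Csf2ra became -0.174, -0.251 and -0.347 at the high, medium and low dose and -0.0425 in the trend with Cy5 alone. It became -0.00455 and -0.00433 at the medium dose with slide and scan date as a block, -0.000973 at the low dose with normexp, and -0.0198 at the high dose without control dam 18 (all omissions -0.0198 to 0.173). Csf3r, at -0.31, -0.26 and -0.29 at the high, medium and low dose as reported, was not near 0. With the dye ratio it became 0.0886, 0.743 and 0.176 at those doses and 0.0833 in the trend. Of 463 values of the members and Csf2rb2 under settings other than leaving out a dam, 441 kept their sign and side of the threshold, as did 654 of 680 with a dam left out. Of 1428 list medians under alternatives, 27 moved by more than the SD between dams.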

Other observations

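Several cytokines that act upstream of the colony stimulating factors or beside them were not well above background on any of the 20 arrays. These were Il17a, Il17f and Il23a, of the interleukin 17 axis that induces Csf3 in epithelium, and Il3, Il5 and Csf3 themselves. For Il5, the fit without the filter on dim probes gave a difference between high dose and control of -0.21 ± 0.04 (SE, adjusted p = 0.0193 by limma). Its Cy5 signal was not well above background in either group, so no fold is given.

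In control dam 14, 5 of the 6 measured members had their highest control value, and so did Csf2rb2. High-dose dam 60, the dam without high Csf2, had the lowest mean of its group for the members and for the myeloid transcription factors (0.0799), but the highest for the T and natural killer cell markers (1.5) and the dendritic cell markers (0.851).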
